A study of Mus musculus with 16 samples.

Results

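The 9 genes described here, Plau, Plaur, Serpinb2, Mmp9, Mmp12, Mmp14, Timp1, Timp2 and Adam17, belong to the extracellular protease system of macrophages. They were found by taking each probe of the array whose gene name in the files matched one of these symbols, which gave 12 probes for the 9 genes among the 34779 genes of the array. Cells of RAW264.7, an immortal mouse line with macrophage features that came from a tumour, were kept for 60 min with cordycepin at 20 μM or with the DMSO vehicle, and then for a further 60 min with or without LPS at 1 μg/ml, the bacterial lipopolysaccharide that activates macrophages. The 4 conditions are called DMSO and cordycepin where no LPS was given, and LPS+DMSO and LPS+cordycepin where it was, and all cultures, with or without LPS, were harvested after the same 120 min in cordycepin or DMSO. Each condition had 4 cultures with 1 Agilent 1-colour array per culture, 16 arrays in all, and each replicate number was collected on its own day. All cultures are of 1 cell line, so the replicates do not cover the spread between animals, and a lower signal may come from fewer cells that hold a transcript or from less of it per cell, which cannot be told apart in these cultures.

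Plasmin degrades fibrin and matrix proteins and is cut from plasminogen by urokinase, the product of Plau, which is held at the cell surface by its receptor, the product of Plaur. Plasminogen activators are blocked by inhibitors of the serpin family, among them PAI-2 (Serpinb2). Matrix metalloproteinases cleave collagens, elastin and other matrix proteins and are inhibited by the TIMPs, while ADAM17 releases TNF and many receptors from the cell surface. Cordycepin is an adenosine analogue that inhibits polyadenylation.

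Only part of this system was measurable. A spot counted as detected where Agilent's software marked it as well above background, and a gene was tested where its probe was detected on all 4 arrays of at least 1 condition. Plau, Plaur, Timp2 and Adam17 were detected on all 16 arrays. Timp1 was detected on 14, the exceptions being 2 of the 4 DMSO arrays. Mmp14 was detected on 4 arrays. Serpinb2, Mmp9 and Mmp12 were not well above background on any array, in any of the 4 conditions. This left 5 of the 9 genes for testing, with 7 probes, among 15877 genes tested.

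Depth is set here by the signal over background. Between 37.1% and 51.2% of the spots per array were well above background, with lower shares on the slide of replicates 1 and 2 than on that of replicates 3 and 4, and no spot was saturated. Of the marker genes of the cell line, 12 of 14 macrophage markers were detected on all arrays, as were 4 of 8 osteoclast, 2 of 7 neutrophil, 2 of 5 endothelial and 1 of 4 T and B cell markers, while none of 7 fibroblast and 5 mast cell markers was. A spot left out as an outlier counted as not detected. Ctss (cathepsin S), a macrophage marker outside the 12, thus counted on 3 LPS+DMSO arrays although its mean there was 16.56. As a check of the LPS treatment, Tnf, the inflammatory cytokine, rose by a log2 change of 6.71 (SE 0.12) and Nfkbia, the inhibitor that NF-kappaB induces, by 3.28 (SE 0.08) in LPS+DMSO against DMSO (limma adjusted p 9.84e-15 and 6.59e-13). Values below are log2 signals after scaling of each array to its 75th percentile. A gene counted as raised or lowered where its change had an adjusted p under 0.05 (limma, over all genes tested) and was 2-fold or more. Comparisons that share a condition share its arrays, as LPS+DMSO enters both its comparison with DMSO and that of LPS+cordycepin with it.

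The probes are shown because 2 of the tested genes have a pair of probes that read different stretches of the transcript or almost the same one. All are 60 bases long, and their first 30 bases are given as in the files, with positions on mm9. The Plau probe lies at chr14:21662242-21662301, the Plaur probe at chr7:25260569-25260628 and the Timp1 probe at chrX:20451802-20451861, all on the + strand. The first Timp2 probe lies at chr11:118163146-118163205 on the - strand, and the second spans an intron (chr11:118171964-118178741, 6778 bases for a probe of 60), so it reads an exon junction. The Adam17 probes lie at chr12:21329378-21329437 and chr12:21329370-21329429 on the - strand, overlap in 52 bases and are therefore close to a repeat of the same measurement. Capitals mark the 22 bases that the printed ends of the Adam17 pair share.
Plau: gtgtatttctgtatctaactgcaagtctag
Plaur: ccctcgtgttgtcttctttggacctcagtt
Timp1: tacttttcctccatctttctttctcttaga
Timp2, first probe: ccgtgagcgttcttgtgccgtgttgatgcc
Timp2, second probe: taattgcaggaaaggcagaaggagatggca
Adam17, first probe: ttgatgtcTGTGAATTACTAATAAAGCTAC
Adam17, second probe: TGTGAATTACTAATAAAGCTACgcacatgt

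The first question was which of these genes LPS changes within 1 hour. Plaur and Timp1 were raised, Plaur 4.08-fold and Timp1 2.15-fold, and none of the 5 tested genes was lowered at least 2-fold by limma or the methods' univariate test. That is 2 of 5 raised, where 2.09% of the 15877 genes tested were raised in this comparison and 2.49% were lowered. Timp1 was detected on 2 of the 4 DMSO arrays and entered the test only through the other conditions, so its rise over DMSO is a description. Without the minimum fold, Adam17 was also higher and Timp2 lower, 4 of 5 genes in all against 14.9% of all genes tested. The median log2 change of the 5 genes was 0.95, against -0.04 over all genes tested. This median is the value of Plau alone, which did not pass (limma adjusted p = 0.0818).

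The second question was what cordycepin does to them. Timp1 was the gene that rose, without LPS 4.51-fold and with LPS 2.89-fold. This is 1 of 5 genes raised in each comparison, against 4.49% of all genes tested without LPS and 5.93% with LPS. The rise without LPS is over DMSO, where 2 of 4 arrays detected Timp1, and is a description. With LPS, all 4 arrays of both conditions detected it. Plaur was lower with cordycepin under LPS, by 1.54-fold, which passed the adjusted p, as 19.2% of all genes tested did in either direction, but not the 2-fold minimum. In cordycepin-treated cells LPS raised 1 of the 5, Plaur, against 1.69% of all genes tested. The plot of signals by array shows the 16 values of 6 genes.

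**Figure D1:**
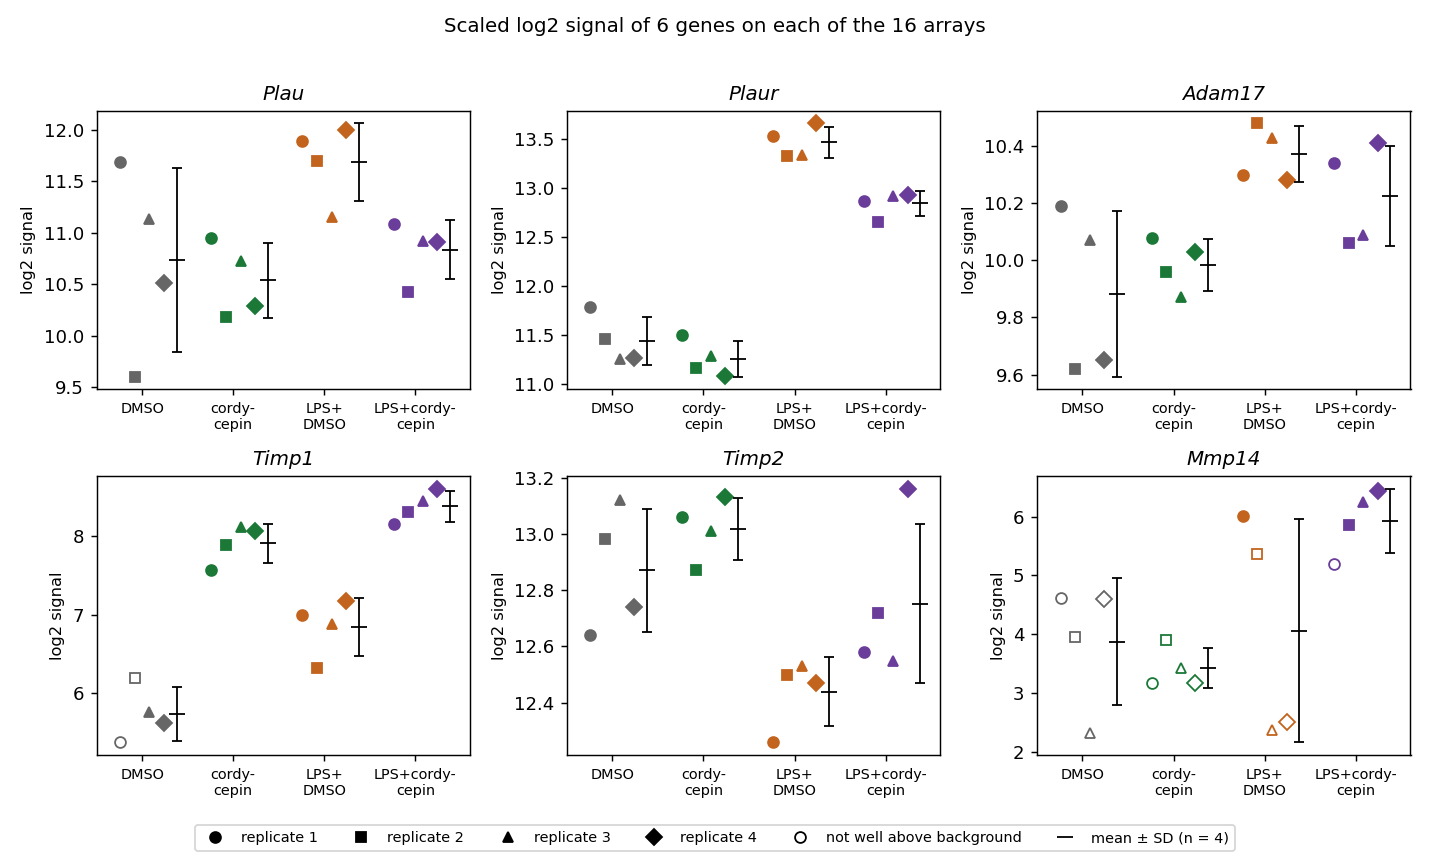
Scaled log2 signal (vertical axis, its range differs between panels) of Plau, Plaur, Adam17, Timp1, Timp2 (first probe) and Mmp14 on the 16 arrays, by condition, with a symbol for each replicate number, open where the probe was not well above background, and the mean ± SD of the 4 arrays in black. Plaur lies between 13.33 and 13.66 in LPS+DMSO and no higher than 11.78 in DMSO, and all 8 Timp1 values with cordycepin lie above all 8 without it.

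Plau encodes urokinase, the activator that cuts plasminogen. Its signals were 11.68, 9.60, 11.13 and 10.51 in DMSO and 10.95, 10.18, 10.72 and 10.29 in cordycepin (replicates 1 to 4). They were 11.89, 11.69, 11.15 and 12.0 in LPS+DMSO and 11.08, 10.42, 10.92 and 10.91 in LPS+cordycepin. The DMSO arrays spread widely and overlapped with LPS+DMSO, whereas each LPS+cordycepin value lay below each LPS+DMSO value.

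The means of Plau were 10.73 ± 0.89 (DMSO) and 10.54 ± 0.36 (cordycepin) without LPS, and 11.68 ± 0.38 (LPS+DMSO) and 10.83 ± 0.29 (LPS+cordycepin) with it (SD, n = 4). The log2 change with LPS was 0.95 (SE 0.35, 95% confidence interval 0.21 to 1.69, limma adjusted p = 0.0818), and Plau was higher in 4 of 4 replicates, by 0.21, 2.09, 0.02 and 1.49. It missed the test, and the size of the difference varied between the replicates. With cordycepin under LPS the log2 change was -0.85 (SE 0.35, interval -1.59 to -0.11, limma adjusted p = 0.112), and the signal was lower in 4 of 4 replicates. With the replicate number as a block in limma, the adjusted p was 0.0299 for LPS and 0.0421 for cordycepin under LPS, both still short of 2-fold. Without the DMSO array of replicate 1, the highest of its group, the LPS change came to 1.27 (limma adjusted p = 0.0132) and would be called. Without replicate 2 it was 0.57, and under scaling to the spiked-in controls its limma adjusted p was 0.474, the highest of the 34 alternatives run. For cordycepin without LPS the log2 change was -0.20 (interval -0.93 to 0.54), and for LPS in cordycepin-treated cells 0.30 (interval -0.44 to 1.03).

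Plaur encodes the urokinase receptor, which concentrates urokinase at the cell surface and takes part in adhesion. Its signals were 11.78, 11.46, 11.25 and 11.26 in DMSO and 11.50, 11.16, 11.28 and 11.08 in cordycepin. They reached 13.53, 13.33, 13.34 and 13.66 in LPS+DMSO and 12.87, 12.65, 12.92 and 12.93 in LPS+cordycepin. The 4 LPS+DMSO values lay above the 4 LPS+cordycepin values, and both above all 8 values without LPS.

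LPS raised Plaur by a log2 change of 2.03 (SE 0.13, interval 1.75 to 2.31, limma adjusted p = 2.93e-08), by 1.75, 1.88, 2.09 and 2.40 in the 4 replicates. In cordycepin-treated cells LPS raised it by 1.58 (SE 0.13, interval 1.31 to 1.86, limma adjusted p = 7.75e-07). These rises were called under each of the 34 alternatives run for Plaur. Under LPS, Plaur was lower with cordycepin by less than 2-fold, with a log2 change of -0.63 (SE 0.13, limma adjusted p = 0.00245) and replicate differences of -0.66, -0.69, -0.42 and -0.73. Under scaling to the spiked-in controls this change was -0.78 with an adjusted p of 0.387. Without LPS the cordycepin change was -0.18 (interval -0.46 to 0.10, limma adjusted p = 0.418). The difference of the LPS response between cells with cordycepin and cells without it was tested too and came to -0.45 (SE 0.18, limma adjusted p = 0.535), so it did not pass.

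The promoter of Plaur is shown because its gene had the largest LPS rise in DMSO among the 5 tested, and that of Timp1 because it was the gene that cordycepin raised. Both are RefSeq sequences on GRCm38.p6, from 250 bases before the start of the transcript to 50 after it, at chr7:24462233-24462532 and chrX:20869916-20870215, both on the + strand. They were searched on both strands for TGANTCA, the AP-1 motif, and for the kappaB motif that NF-kappaB binds, by its usual consensus. The table holds promoters for 7 of the 9 genes, all but Plau and Mmp9. Capitals mark a match.
Plaur: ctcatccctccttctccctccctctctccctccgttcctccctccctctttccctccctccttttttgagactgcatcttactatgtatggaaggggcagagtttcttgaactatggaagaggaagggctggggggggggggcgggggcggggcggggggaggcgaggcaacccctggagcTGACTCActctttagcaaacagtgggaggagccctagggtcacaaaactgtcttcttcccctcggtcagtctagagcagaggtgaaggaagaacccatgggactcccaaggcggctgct
Timp1: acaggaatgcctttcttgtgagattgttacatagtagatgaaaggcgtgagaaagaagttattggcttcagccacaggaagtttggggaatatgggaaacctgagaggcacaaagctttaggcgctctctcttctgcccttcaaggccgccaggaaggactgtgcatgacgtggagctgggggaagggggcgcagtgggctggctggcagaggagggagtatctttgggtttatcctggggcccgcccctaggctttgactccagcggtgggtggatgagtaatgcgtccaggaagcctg

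The Plaur promoter held 1 AP-1 match, TGACTCA, which begins 69 bases before the start. Its letters read as AP-1 on both strands, so it is counted once. The Timp1 promoter held no match to either motif in this window, and the same was true of Timp2, Adam17 and Mmp14. Among genes below background, both Serpinb2 promoters, which overlap, held the AP-1 match TGAATCA, 1 of the 2 Mmp12 promoters held TGAGTCA, and the other Mmp12 promoter held a kappaB match. The promoters of Tnf, Icam1, Slpi and Adamts1, which LPS also raised, held no match to either motif in the same search. Of 32851 RefSeq promoters of this length, 7.81% held the AP-1 motif and 6.93% the kappaB motif. A match is a description of letters and does not show that a factor binds there. Only exact matches were counted, so a promoter without one may hold a variant of the motif and may still be bound.

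Serpinb2 encodes PAI-2, an inhibitor of urokinase. Its probe (chr1:109422046-109422105 on mm9, + strand) was not well above background on any of the 16 arrays, with signals from 2.08 to 5.29. The lowest probe called well above background on each array stood between 4.41 and 6.32, so these signals give no order between conditions and no fold change is given. PAI-2 mRNA was therefore not detectable in any condition at this sensitivity, which does not show that it was absent.

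Mmp9 encodes gelatinase B, and Mmp12 the macrophage elastase. The Mmp9 probe (chr2:164780620-164780679) gave signals of 2.59 to 5.72 and was not well above background on any array. The 2 Mmp12 probes (chr9:7352935-7352994 and chr9:7360373-7360432) gave 3.31 to 4.92 and 2.43 to 4.20, also without an array well above background. Between DMSO and cordycepin the first Mmp12 probe did not overlap, with 4.92, 4.58, 4.52 and 4.31 against 3.51, 3.88, 3.31 and 3.46. As none of these 8 signals was well above background, this difference is given as a value of the files and not as a change of the gene.

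Mmp14 encodes a membrane-anchored collagenase that also activates other metalloproteinases. Its probe (chr14:55058775-55058834) gave 4.62, 3.95, 2.32 and 4.60 in DMSO and 3.17, 3.90, 3.43 and 3.17 in cordycepin, with no array well above background. In LPS+DMSO the signals were 6.01, 5.37, 2.36 and 2.50, of which replicate 1 was well above background. In LPS+cordycepin they were 5.20, 5.85, 6.24 and 6.43, of which replicates 2, 3 and 4 were. The LPS+cordycepin signals were more even than those in LPS+DMSO, with which they overlapped, and were higher than the 4 cordycepin signals, none of which was well above background.

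No bound on the fold of Mmp14 is given, as the cordycepin signals and 1 of the 4 LPS+cordycepin signals were not well above background. Mmp14 was outside the genes tested, and in a fit of all 34779 genes without a filter on dim probes its log2 change was 2.51 (SE 0.76, limma adjusted p = 0.150) against cordycepin and 1.87 (SE 0.76, limma adjusted p = 0.237) against LPS+DMSO. Neither passed the test.

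**Figure D2:**
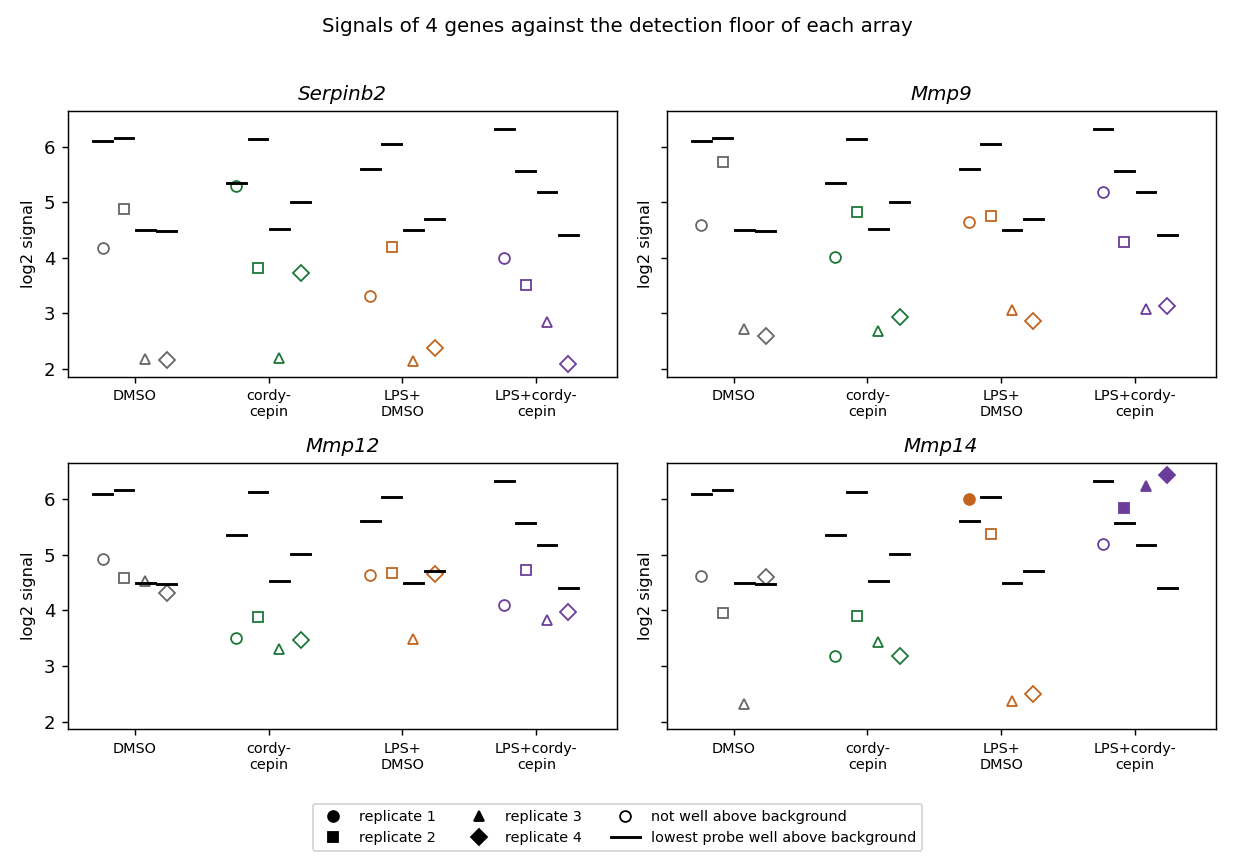
Scaled log2 signal (vertical axis, shared) of Serpinb2, Mmp9, Mmp12 (its brighter probe) and Mmp14 on the 16 arrays, by condition and replicate, open where not well above background, with a black bar at the lowest signal of any probe well above background on that array. The only filled points are the 4 of Mmp14, 1 in LPS+DMSO and 3 in LPS+cordycepin.

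Timp1 encodes a secreted inhibitor of most matrix metalloproteinases. Its signals were 5.38, 6.20, 5.76 and 5.62 in DMSO, of which replicates 3 and 4 were well above background. They were 7.57, 7.89, 8.12 and 8.06 in cordycepin and 7.0, 6.32, 6.88 and 7.17 in LPS+DMSO. In LPS+cordycepin they were 8.15, 8.31, 8.44 and 8.60. The 4 conditions did not overlap, and stood in the order DMSO, LPS+DMSO, cordycepin and LPS+cordycepin, although the gaps between DMSO and LPS+DMSO and between cordycepin and LPS+cordycepin were small (6.20 against 6.32 and 8.12 against 8.15).

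Cordycepin raised Timp1 without LPS by a log2 change of 2.17 (SE 0.20, interval 1.75 to 2.59, limma adjusted p = 1.2e-06), by 2.19, 1.69, 2.36 and 2.44 in the 4 replicates. With LPS the rise was 1.53 (SE 0.20, interval 1.11 to 1.95, limma adjusted p = 2.83e-05), by 1.15, 1.99, 1.55 and 1.43. Both rises were called under each of the 33 alternatives that could test Timp1, but their size was not stable: with normexp background correction they were 1.1 and 1.09, and in the value table of the authors the rise without LPS was 1.58. Of the 4 DMSO signals behind the first of these rises, 2 were not well above background, so that rise is a description.

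LPS raised Timp1 by a log2 change of 1.11 (SE 0.20, interval 0.69 to 1.52, limma adjusted p = 0.00097), by 1.62, 0.13, 1.12 and 1.56. This call rests on the same DMSO signals, of which 2 were not well above background, and was close to the 2-fold minimum. It fell short of it without replicate 1 (0.93), without replicate 4 (0.96), without the DMSO array of replicate 1 (0.99) and, just under 2-fold, without the LPS+DMSO array of replicate 4. The change was 0.43 (limma adjusted p = 0.234) with normexp and 0.91 in the value table of the authors, and with scaling to the spiked-in controls its adjusted p was 0.248. In cordycepin-treated cells the LPS change was 0.46 (interval 0.04 to 0.88, limma adjusted p = 0.217), and the difference between the 2 LPS responses was -0.64 (SE 0.28, limma adjusted p = 0.584).

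The gene next upstream of Timp1 on the same strand in the RefSeq order is Araf, a kinase of the RAF family. Its log2 change with cordycepin was -0.07 (SE 0.08, limma adjusted p = 0.633) without LPS and 0.07 (SE 0.08, limma adjusted p = 0.662) with LPS. Any part of this neighbour in the rise of Timp1 was not tested. Single markers of other cell types also rose with cordycepin. Of 7 neutrophil markers, Mpo (myeloperoxidase) was raised by a log2 change of 2.02 without LPS and 3.97 with LPS, from groups in which 2 of 4 DMSO and 3 of 4 LPS+DMSO arrays were well above background. Mpo thus entered the test only through the conditions with cordycepin. Elane (neutrophil elastase) and S100a8 (a calcium-binding protein of neutrophils), both detected on all arrays, were not raised, with changes of -0.21 and 0.47 without LPS and -0.54 and -0.05 with LPS, and S100a9, Ly6g and Ngp were not well above background on any array. Of 4 T and B cell markers, Cd79a (a chain of the B cell receptor complex) was raised by 2.63 with LPS, against a change of 0.35 without LPS (limma adjusted p = 0.521). Cd79a entered the test only through LPS+cordycepin, where it was detected on all 4 arrays. Cd3e, a T cell receptor subunit detected on all arrays, had changes of 0.02 and 0.27, and Cd3g and Ms4a1 were not well above background on any array.

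Without LPS, where the rise of Timp1 was 2.17, the summed signals of both lists overlapped between the conditions. That of the neutrophil markers ranged from 755 to 1300 in DMSO and from 923 to 1300 in cordycepin, and that of the T and B cell markers from 424 to 577 and from 446 to 624. With LPS the neutrophil sums still overlapped (895 to 1610 in LPS+DMSO and 1360 to 2450 in LPS+cordycepin), and the T and B cell sums did not (445 to 601 and 661 to 2190). The sums of the fibroblast, endothelial, mast cell and osteoclast markers overlapped between cordycepin and its control with and without LPS. These sums are of unlogged signals, so they mostly follow the brightest markers and can overlap although a dim marker rose. In DMSO the mean log2 signals were 9.3 for Elane and 8.63 for Cd3e, against 5.02 for Mpo and 5.92 for Cd79a. The part of the marker genes in the rise of Timp1 was not tested.

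Timp2 encodes a second inhibitor of metalloproteinases, which also takes part in the activation of proMMP-2 by MMP14. With the first probe, which stood for the gene, the signals were 12.64, 12.98, 13.12 and 12.74 in DMSO and 12.26, 12.50, 12.53 and 12.47 in LPS+DMSO. These groups did not overlap. Cordycepin gave 13.06, 12.87, 13.01 and 13.13, and LPS+cordycepin 12.58, 12.72, 12.55 and 13.16.

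With LPS the first Timp2 probe was lower by a log2 change of -0.43 (SE 0.14, limma adjusted p = 0.0468), which passed the adjusted p and stayed under 2-fold. The second probe, across the exon junction, gave -0.03 (limma adjusted p = 0.918), with means of 10.49 in DMSO and 10.46 in LPS+DMSO. The probes therefore disagreed, and the mean of both gave -0.23. For cordycepin under LPS the first probe gave 0.31 (interval 0.02 to 0.61, limma adjusted p = 0.145) and for cordycepin without LPS 0.14 (interval -0.15 to 0.44, limma adjusted p = 0.564).

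Adam17 encodes the protease that sheds TNF and its receptors. Its signals were 10.19, 9.62, 10.07 and 9.65 in DMSO and 10.30, 10.48, 10.43 and 10.28 in LPS+DMSO. Cordycepin gave 10.08, 9.96, 9.87 and 10.03, and LPS+cordycepin 10.34, 10.06, 10.09 and 10.41. The LPS+DMSO values lay above the DMSO values by a narrow margin, and LPS+cordycepin overlapped with LPS+DMSO.

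The log2 change of Adam17 with LPS was 0.49 (SE 0.13, interval 0.22 to 0.77, limma adjusted p = 0.0167), under 2-fold. The second probe, which overlaps with the first, gave 0.53. For cordycepin under LPS the change was -0.15 (interval -0.43 to 0.13, limma adjusted p = 0.526) and for cordycepin without LPS 0.10 (interval -0.17 to 0.38, limma adjusted p = 0.670). In cordycepin-treated cells the LPS change was 0.24 (limma adjusted p = 0.381), and -0.07 when arrays were scaled to the spiked-in controls. The intervals exclude changes of 2-fold in either direction for Adam17 in these comparisons.

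**Figure D3:**
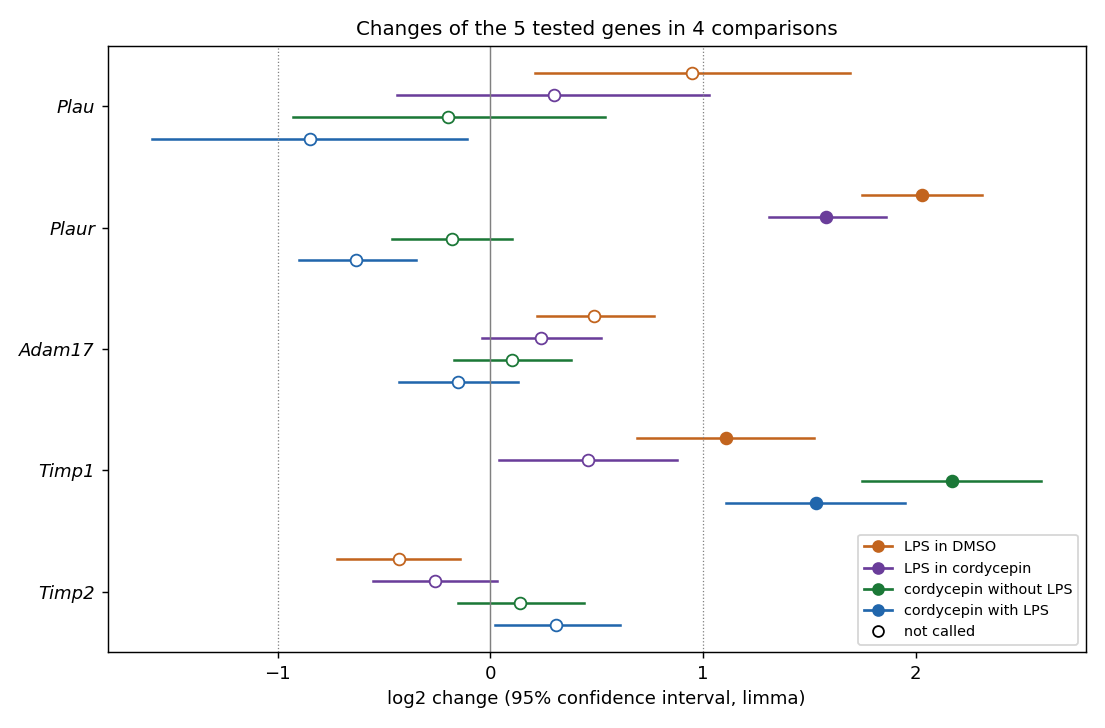
Log2 change (horizontal axis) with its 95% confidence interval from limma for the 5 tested genes in 4 comparisons, filled where called, with dotted lines at 2-fold. Plaur is filled for LPS with and without cordycepin, and Timp1 for cordycepin with and without LPS and for LPS in DMSO, at 1.11.

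For none of the 5 genes did the LPS responses with and without cordycepin differ at an adjusted p under 0.05 (limma), while 0.554% of all genes tested did. At an unadjusted p under 0.05 in limma the difference passed for 2 of them, Plaur and Timp1. No share over all genes tested is given at this looser threshold, so this count is not set against one. Within the slide of replicates 1 and 2, the LPS rise of Plaur was 1.81 and within that of replicates 3 and 4 it was 2.25. For Timp1 the cordycepin rises without LPS were 1.94 and 2.40 on these slides, and those with LPS 1.57 and 1.49.

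The genes whose signals followed these most closely over the 16 arrays were found by Pearson's r, as a description without a test. The arrays share days, slides and conditions, and r is over all of them together. Plaur was followed by Dusp16 (r = 0.994), Ccl2 (0.992) and Tnfsf9 (0.990), Timp1 by Pip5kl1 (0.986), Abcb9 (0.983) and Vwce (0.980), and Plau by Manf (0.936), Gripap1 (0.923) and Pdgfb (0.919). The mean of Pip5kl1 was 5.74 in DMSO, and those of Vwce were 3.97 in DMSO and 5.48 in LPS+DMSO. These lie near or below the lowest signals well above background, so the r of both with Timp1 includes values near the floor. Timp2 was followed by Smap1 (0.911), Zfp457 (0.910) and Cplane1 (0.905), and Adam17 by Msmo1 (0.919), Actg1 (0.903) and Tubb2b (0.884).

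The other genes of the system were taken from 11 lists with 147 genes, of which 69 were tested. LPS raised 5 of the 69, where 2.09% of all genes tested were raised, and it lowered none at least 2-fold (0 lowered by the methods' univariate test, and 10 lower at an unadjusted p under 0.05 in limma). For that unadjusted count no share over all genes is given. In cordycepin-treated cells LPS raised 4, against 1.69% of all genes tested. Cordycepin raised 3 without LPS, against 4.49% of all genes tested. With LPS it raised 2, against 5.93%, and lowered 1, against 1.52%, so the raised shares of the lists were near or below those of all genes in both cordycepin comparisons. Among the genes that cordycepin raised, Mmp23 and Rhbdf1 entered the test only through the conditions with cordycepin. The genes tested, of which 11653 of 15877 counted as named, include genes not detected on all arrays. With only probes above background on all arrays, cordycepin raised 226 genes without LPS and 342 with LPS, instead of 713 and 942. Of the genes in the lists it then raised 1 in each comparison. The median log2 change of the 69 was -0.04 with LPS, as it was over all genes tested, and 0.08 and 0.05 with cordycepin without and with LPS, against 0.04 and 0.03. The genes called in at least 1 of the 4 comparisons were 8.

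Among 9 activators, targets and inhibitors of plasminogen, 1 was tested, and it was called. Serpinf2, which encodes the plasmin inhibitor alpha-2-antiplasmin, was raised by cordycepin from 6.32 ± 0.22 to 9.20 ± 0.22 without LPS and from 6.45 ± 0.20 to 8.91 ± 0.21 with LPS (SD, n = 4). These are log2 changes of 2.88 and 2.47 (SE 0.15 each, limma adjusted p = 3.91e-09 and 1.14e-08), while LPS in DMSO gave 0.13 (limma adjusted p = 0.671).

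Of 20 other matrix metalloproteinases 1 was tested, Mmp23, which was raised by cordycepin without LPS by 1.26 (SE 0.33, limma adjusted p = 0.0147). With LPS its change was 0.78 (limma adjusted p = 0.126). Its probe was well above background on 3 of 4 arrays in DMSO and on 3 of 4 in LPS+DMSO. Mmp23 therefore entered the test only through the conditions with cordycepin, and its rise is a description. Of 10 further protease inhibitors 5 were tested, and Slpi, the secretory leukocyte protease inhibitor, was raised by LPS by 1.39 (SE 0.17, limma adjusted p = 3.21e-05). Its LPS change in cordycepin-treated cells was 0.63 (limma adjusted p = 0.0319), and the difference of -0.76 had an adjusted p of 0.262 in limma, or 0.0162 with the replicate number as a block. Under LPS, Slpi was lower with cordycepin by a log2 change of -0.57 (limma adjusted p = 0.0269), short of 2-fold.

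Of 13 ADAM and ADAMTS proteases 6 were tested, and Adamts1, a secreted proteoglycanase, rose with LPS by 2.22 (SE 0.24, limma adjusted p = 1.1e-05) and by 1.87 (SE 0.24) in cordycepin-treated cells. Under LPS, Adamts1 was lower with cordycepin by a log2 change of -0.82 (SE 0.24, limma adjusted p = 0.0273), short of 2-fold. Of 10 genes for the maturation of ADAM17 and MMP14, 8 were tested, and Rhbdf1, which encodes a rhomboid-like protein that escorts ADAM17, was raised by cordycepin. The log2 change was 1.95 (SE 0.40, limma adjusted p = 0.00244) without LPS and 2.46 (SE 0.40, limma adjusted p = 0.000249) with LPS, from DMSO and LPS+DMSO groups of which 2 of 4 arrays each were well above background. Rhbdf1 entered the test only through the conditions with cordycepin, where it was detected on all 4 arrays, so its rises are descriptions.

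Of 21 genes for proteins that ADAM17 sheds, 13 were tested, and LPS raised Tnf, Icam1 and Hbegf with and without cordycepin. Icam1, an adhesion molecule, rose by 2.67 (SE 0.14) in DMSO and by 1.74 (SE 0.14) in cordycepin. Hbegf, a growth factor of the EGF family, rose by 1.49 (SE 0.25) and 1.16 (SE 0.25). Tnf rose by 6.71 and by 5.17 (SE 0.12 each), and under LPS cordycepin lowered it by a log2 change of -1.07 (SE 0.12, limma adjusted p = 5.29e-06). Icam1 was also lower with cordycepin under LPS, by -0.64 (limma adjusted p = 0.00278), short of 2-fold. For Hbegf this change was -0.62 (limma adjusted p = 0.113).

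The LPS response was smaller with cordycepin for 3 of the 13, against 0.271% of all genes tested in this direction. The differences were -1.55 for Tnf (SE 0.16, limma adjusted p = 0.00037), -0.93 for Icam1 (SE 0.19, limma adjusted p = 0.0438) and -0.59 for Cd44, the hyaluronan receptor, which is named after its values were seen (SE 0.12, limma adjusted p = 0.0447). The latter 2 lie just under the threshold. Under LPS, Cd44 was lower with cordycepin by a log2 change of -0.35 (limma adjusted p = 0.00872), short of 2-fold. When 1 array or replicate number was left out, the difference of Tnf passed in 20 of 20 fits, that of Icam1 in 3 and that of Cd44 in 2.

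Of 13 tested genes among 15 cathepsins, none was called in any of the 4 comparisons between conditions by limma or the methods' univariate test. At an unadjusted p under 0.05 in limma there were 2 with LPS in DMSO, 2 with LPS in cordycepin-treated cells, 0 with cordycepin without LPS and 1 with cordycepin under LPS. Of 13 surface binding genes for plasminogen and urokinase, 11 were tested and none was called by either test, and in the same order 1, 0, 2 and 1 passed the unadjusted p. Itgb3 (an integrin beta subunit, named after its values were seen), was lower with cordycepin without LPS by less than 2-fold, with a log2 change of -0.54 (limma adjusted p = 0.0347). Among 13 clade B serpins 5 were tested, among 11 genes of coagulation at the cell surface 2, and among 12 matrix proteins 4, and none of them was called by limma or the methods' univariate test. At an unadjusted p under 0.05 there were 1, 0, 2 and 3 of the serpins in the same order of comparisons, none of the coagulation genes in any, and 1, 0, 0 and 0 of the matrix proteins. No share over all genes tested is given for the unadjusted p, so these counts are not set against one. Serpinb9, an inhibitor of granzyme B named after its values were seen, was higher with cordycepin under LPS by 0.81 (limma adjusted p = 0.000307), short of 2-fold.

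**Figure D4:**
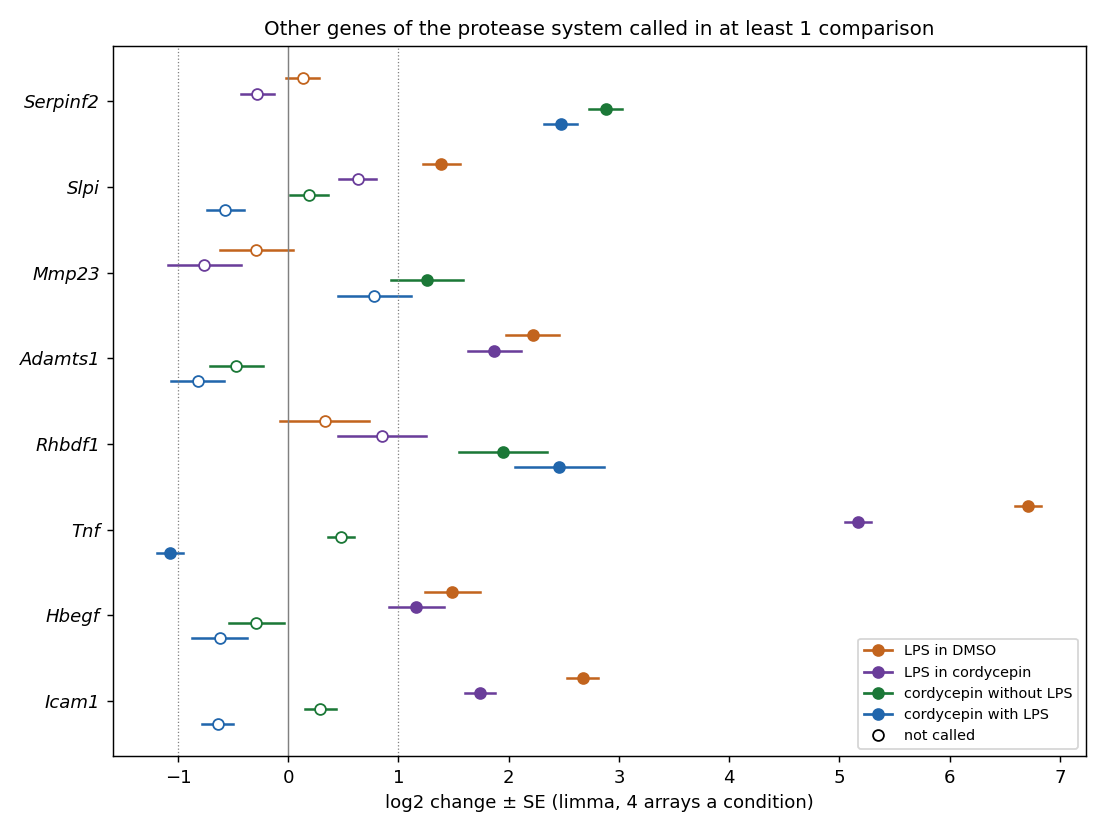
Log2 change ± SE from limma (horizontal axis) of the 8 other genes of the protease system that were called in at least 1 comparison, filled where called, with dotted lines at 2-fold. Tnf lies farthest right with LPS, at 6.71, and Serpinf2 and Rhbdf1 are filled for cordycepin with and without LPS.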

How the data were processed

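The members and the gene lists were chosen with earlier results of these data known, so counts over them are descriptions. Cy3-labelled RNA of 16 cultures was read on 1-colour Agilent mouse arrays. The authors quantified the spots with Agilent Feature Extraction (10.7.3.1 in the file headers, 10.10.1.1 in the submitters' processing notes), and the intensity used here is their processed signal, with background subtracted and no scaling from array to array. A deposited table of the authors gives log2 values, normalized between arrays. Its method is not given in the sources used here, and on each array it correlated with the log2 scanner signal by 0.978 to 1.00, with medians of 9.55 to 9.58.

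Spots marked as non-uniform or as population outliers were left out, and spots of a probe were averaged. Each array was scaled to the 75th percentile of the 18063 probes that were detected (well above background) throughout. A probe entered the test when every array of some condition detected it (21597 probes), and the brightest stood for its gene. Names came from RefSeq by accession (27656 probes), symbol (3401) or synonym (321), and from the files for 24303. A single limma model (3.58.1, R 4.3.3) held the 4 condition means, and Benjamini-Hochberg adjustment ran over 15877 genes. Genes named are the 9 genes with all their probes, each gene of the lists called in at least 1 of the 4 comparisons, the 3 genes most correlated with each tested member, and Tnf and Nfkbia. Some listed genes are not reported here and were left out of the lists. The fit was also tested on simulated arrays with the spread of these data, in which only the LPS+DMSO group was changed. The other comparisons were not tested in this way.

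The labels give a separate day of collection for each replicate number, so the number pairs the samples. Residuals of same-numbered arrays correlated by a mean of 0.20 (-0.06 to 0.44), those of other numbers on the same slide by 0.18. Between slides the mean was -0.19 (-0.43 to -0.02). Arrays of the same number share a slide, so their correlation was near that of other arrays on that slide. The replicate block was an alternative, as were the slide, 5 other scalings or background corrections, the value table, filters on dim probes, thresholds, a fit of the groups compared, the univariate test of the study's methods, and fits that omitted 1 replicate or array. For RNA isolation the labels name a Nucleospin kit, and the study's methods name other reagents. Files were read and plots made in Python 3.11.15 (pandas 2.3.3, numpy 2.4.6, matplotlib 3.10.9).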

Additional observations from a re-analysis of the deposited data

Results flagged for a closer look

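In 3 of 60 condition groups of the genes named, 1 array stood apart from the other 3 by Dixon's test at its 95% limit, where chance gives about 1 in 20. The Adamts1 signal was 9.27 on the LPS+DMSO array of replicate 4, against 9.72 to 9.75 on the others. The Mmp23 signal was 7.04 on the LPS+cordycepin array of replicate 4, against 6.41 to 6.48. The Slpi signal was 11.76 on the LPS+cordycepin array of replicate 1, against 11.39 to 11.45. None of these groups is of 1 of the 9 genes.

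For 4 of the genes named, the LPS response with cordycepin differed from that without it in the interaction term of limma. The difference on the log2 scale was -1.55 for Tnf (adjusted p = 0.00037), -0.74 for Nfkbia (adjusted p = 0.011), -0.93 for Icam1 (adjusted p = 0.0438) and -0.59 for Cd44 (adjusted p = 0.0447).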

How the results depend on the processing

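The 25 log2 changes of the 5 tested genes kept their side of the call in 827 of 835 values under the alternatives that gave one, and 7 of the other 8 are the LPS change of Timp1, which then missed its call. The eighth is the LPS change of Plau without the DMSO array of replicate 1 (1.27). None of the called changes reversed. Of changes that were not called, those of Plau and Adam17 with LPS in cordycepin-treated cells (-0.02 and -0.07) and the interaction of Timp2 (-0.04) had the other sign under scaling to the spiked-in controls, which moved the median of all genes to -0.36 for LPS in cordycepin-treated cells, -0.12 for cordycepin with LPS and -0.21 for the interaction, and the cordycepin change of Plau without LPS had it without the DMSO array of replicate 1 (0.12). The replicate block changed no call of the 9 genes, and for the interaction it raised the calls over all genes from 88 to 208.

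The number of the 5 genes called with LPS in DMSO was 2, and 1 with spiked-in controls, normexp, the value table of the authors or only probes above background on all arrays, 4 with no minimum fold, and 1 to 2 with a replicate or array left out. For cordycepin it was 1 with and without LPS. Without a filter on dim probes it was 2 without LPS, the second being Mmp12, which was not well above background on any array. With only probes above background on all arrays it was 0 in both, since Timp1 was then not tested. With LPS it was 2 with no minimum fold or a minimum of 1.5-fold.

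For the 69 genes of the lists, the calls with LPS in DMSO were 5, and 11 with no minimum fold or 9 at 1.5-fold. With LPS in cordycepin-treated cells they were 4, and 7 under either. With cordycepin and LPS they were 3, and 8 or 6. With cordycepin without LPS they were 3, then 6 with no minimum fold and 1 with normexp, with only probes above background on all arrays, or with the methods' univariate test. The interaction calls were 3, then 0 with spiked-in controls and 1 with the percentile over all probes, normexp, no filter on dim probes or an adjusted p under 0.01, and 1 to 3 with a replicate or array left out. Over all genes, 45.6% of the calls with LPS in DMSO were higher, and 59.9% with normexp or 60.1% in the value table. Signals near background limit Timp1 in DMSO and all statements on Serpinb2, Mmp9, Mmp12 and Mmp14.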
